A study of Mus musculus with 6 samples.

Results

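Mitochondrial ribosomal proteins are the 78 of 24537 genes in the table whose symbol starts with Mrpl or Mrps and a digit, 49 of them named for the large and 29 for the small subunit. The rule uses the symbol alone, but the family and the gene lists set beside it were picked with earlier results of these data known. All 78 passed the filter on low values. The RNA came from regulatory T cells (Tregs) of the mouse colon, CD4 T cells that restrain inflammation there, and was sequenced in bulk. Of the 6 libraries, 3 carry the genotype label REV-ERB KO and 3 the label REV-ERB WT. REV-ERB is a pair of nuclear receptors of the circadian clock that repress transcription. Both groups had colitis induced with the hapten TNBS, given as 150 µl of 1% on the skin and, 7 days later, as 100 µl of 2.5% into the rectum. The sources used here name no strain, age, deleting Cre or sorting gate. The labels do not say that libraries came from separate animals, so p-values measure the spread between these libraries, which may be technical.

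The mitochondrial ribosome translates the few messages encoded by mitochondrial DNA, whose products are core subunits of the respiratory chain and of ATP synthase. Its ribosomal RNAs are made in the organelle, while its proteins are encoded in the nucleus, made in the cytosol and imported. The small subunit reads the message and the large subunit joins amino acids. Some members have counterparts in bacteria, such as Mrps12 at the decoding site and Mrpl12 in the stalk that recruits translation factors, and others exist only in mitochondria. A symbol does not always give the place in the assembled particle, since Mrps18a and Mrps30 sit in the large subunit. Mrps36 carries a ribosomal name but is a subunit of the oxoglutarate dehydrogenase complex and is not seen in structures of the mammalian mitochondrial ribosome.

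Reads recovered from the deposited values, over the genes in the table only, numbered 12641850 to 15890630 in KO-labelled libraries. In WT-labelled libraries they numbered 9794480 to 12122575, so this recovered depth differed with the labels. Nr1d1, which encodes REV-ERBα, stood at 169.2, 154.3 and 141.4 TPM (a level per unit of transcript length, scaled by the library total) in KO-labelled libraries, against 66.3, 104.0 and 88.2 TPM in WT-labelled libraries. It was thus not lower in KO-labelled libraries, and every direction below follows the labels as given. The labels do not say which REV-ERB gene or which exons were removed, and a level per gene cannot show a deleted exon. Summed over 9 T cell and Treg markers, of which Ctla4 held the most, KO-labelled libraries held 4278.4 to 4857.4 TPM and WT-labelled libraries 5573.8 to 6050.1 TPM. Foxp3, the factor that defines Tregs, was at 200.6 ± 32.1 TPM in KO-labelled libraries and 568.4 ± 107.8 TPM in WT-labelled libraries (SD, n = 3 each). Between the groups, 5 of the 9 markers (55.6%) did not overlap, all lower in KO, against 10.4% of all genes tested. These were Foxp3, Ctla4, Cd3g, Cd4 and Cd3d, with Ctla4 at 2091.0 ± 223.1 TPM in KO and 2743.0 ± 126.3 TPM in WT. Of the 9 markers, 8 had a difference below 0 and none passed the threshold. Il2ra was at 300.7 ± 62.1 TPM in KO and 319.3 ± 42.1 TPM in WT, Ikzf2 at 77.7 ± 12.9 and 80.7 ± 2.78 TPM, and Tnfrsf18, the exception, at 792.3 ± 97.8 and 667.5 ± 89.8 TPM. In bulk samples, fewer cells of a type and less RNA per cell cannot be told apart.

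Promoters are shown for the pair of members of smallest p in each subunit and for the 3 Mrps18 paralogs, to show where motifs counted over all members lie. The sequences run 5′ to 3′ from 250 bases before to 50 bases after the gene's start as RefSeq gives it, build GRCm38.p6. That start lies 85 bases from the start of the table's row for Mrpl23 and 71 bases for Mrps18b, so these windows end before the row begins. It coincides with the row's start for the other 5. Over all members with a promoter, 60 of 69 starts lay within 50 bases of the row's. Capitals mark matches on either strand to an ETS motif (CCGGAAG), an NRF1 motif (GCGC, any base, then TGCGC), a YY1 motif (ATGGCGG) or a core of the element that REV-ERB and ROR receptors bind (TAGGTCA or TGGGTCA). Where 2 matches overlapped, they would form 1 run of capitals, and none did in these 7. The sequence of Mrps27 (chr13:99344536-99344835, plus strand), Mrpl44 (chr1:79775768-79776067, plus strand), Mrps6 (chr16:92058086-92058385, plus strand), Mrpl23 (chr7:142532782-142533081, plus strand), Mrps18a (chr17:46110754-46111053, plus strand), Mrps18b (chr17:35916391-35916690, minus strand) and Mrps18c (chr5:100798509-100798808, plus strand) read as follows.
Mrps27: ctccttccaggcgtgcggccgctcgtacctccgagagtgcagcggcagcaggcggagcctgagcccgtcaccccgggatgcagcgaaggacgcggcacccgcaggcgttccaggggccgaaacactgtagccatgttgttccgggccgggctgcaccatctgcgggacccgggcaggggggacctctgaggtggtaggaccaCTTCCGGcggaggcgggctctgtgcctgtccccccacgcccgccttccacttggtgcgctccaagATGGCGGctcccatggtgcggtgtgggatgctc
Mrpl44: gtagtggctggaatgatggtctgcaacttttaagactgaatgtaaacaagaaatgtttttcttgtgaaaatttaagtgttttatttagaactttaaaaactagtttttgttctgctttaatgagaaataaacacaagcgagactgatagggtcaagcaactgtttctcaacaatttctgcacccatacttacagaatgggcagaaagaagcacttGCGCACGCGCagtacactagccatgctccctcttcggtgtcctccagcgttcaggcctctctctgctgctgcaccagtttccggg
Mrps6: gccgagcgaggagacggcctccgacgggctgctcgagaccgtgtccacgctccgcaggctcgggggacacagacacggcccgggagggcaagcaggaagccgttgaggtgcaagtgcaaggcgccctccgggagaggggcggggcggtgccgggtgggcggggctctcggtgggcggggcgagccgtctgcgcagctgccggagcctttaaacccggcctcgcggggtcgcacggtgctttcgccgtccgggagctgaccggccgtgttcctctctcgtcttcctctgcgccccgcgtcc
Mrpl23: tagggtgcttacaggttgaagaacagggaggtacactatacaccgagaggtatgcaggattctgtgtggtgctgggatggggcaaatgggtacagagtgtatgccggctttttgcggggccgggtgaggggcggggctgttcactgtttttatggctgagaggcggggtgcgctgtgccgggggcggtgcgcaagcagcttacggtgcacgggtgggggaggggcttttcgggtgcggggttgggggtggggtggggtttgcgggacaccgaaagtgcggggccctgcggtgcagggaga
Mrps18a: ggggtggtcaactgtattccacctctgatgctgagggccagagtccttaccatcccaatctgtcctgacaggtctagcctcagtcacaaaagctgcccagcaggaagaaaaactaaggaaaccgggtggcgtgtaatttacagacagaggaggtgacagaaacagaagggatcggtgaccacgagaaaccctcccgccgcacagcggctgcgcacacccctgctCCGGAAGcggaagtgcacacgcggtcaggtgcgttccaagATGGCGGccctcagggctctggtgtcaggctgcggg
Mrps18b: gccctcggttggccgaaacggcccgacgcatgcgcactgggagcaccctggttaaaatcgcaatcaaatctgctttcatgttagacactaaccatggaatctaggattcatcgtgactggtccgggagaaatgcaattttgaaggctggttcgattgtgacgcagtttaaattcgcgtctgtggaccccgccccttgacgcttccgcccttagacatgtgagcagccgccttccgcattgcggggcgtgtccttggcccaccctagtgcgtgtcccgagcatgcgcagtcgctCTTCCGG
Mrps18c: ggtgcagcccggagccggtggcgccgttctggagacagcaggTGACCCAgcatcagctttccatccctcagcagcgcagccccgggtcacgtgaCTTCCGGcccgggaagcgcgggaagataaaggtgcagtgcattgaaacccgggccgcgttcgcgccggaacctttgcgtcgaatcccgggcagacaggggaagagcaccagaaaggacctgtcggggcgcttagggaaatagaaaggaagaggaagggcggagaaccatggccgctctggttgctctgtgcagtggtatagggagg

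Mrps27 held an ETS match that begins 48 bases before its start and a YY1 match that begins 17 bases after it. Mrps18a had the same pair, 26 bases before and 14 bases after its start. The 3 paralogs each held an ETS match, and Mrps18c also held a TGGGTCA core. Mrpl44 held an NRF1 match 35 bases before its start. The windows of Mrps6 and Mrpl23 held none of these letters.

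A promoter was found for 69 of the 78 members and for 9882 of the 13211 genes tested. Mrpl4, Mrpl13, Mrpl15, Mrpl19, Mrpl38, Mrpl54, Mrps28, Mrps34 and Mrps35 had no entry. The ETS motif stood in 37.7% of the members' promoters, against 18.6% of those of all genes tested. The NRF1 motif stood in 18.8% of the members' promoters, against 10.4%, and the YY1 motif in 18.8%, against 8.31%. ETS factors such as GABP, the nuclear respiratory factor NRF1 and YY1 are known activators of nuclear genes for mitochondria. Of the members' promoters, 60.9% held at least 1 of the 3 motifs, against 32.3% over all genes tested. The REV-ERB and ROR core stood in 7.25% of the members' promoters, against 5.13%. It was found in Mrpl11, Mrpl18, Mrpl30, Mrpl53 and Mrps18c. The median log2 difference between the groups was 0.16 for these 5 members and 0.09 for the 64 without the core. It was 0.23 with and 0.08 without the NRF1 motif, 0.17 with and 0.05 without the ETS motif, and 0.05 with and 0.13 without the YY1 motif. These splits were not tested. A TATA box (TATAAA) stood in 5.8% and a CCAAT box (CCAAT) in 39.1% of the members' promoters, against 7.64% and 38.2%. The median GC content was 58% in the members' promoters and 60.7% over all.

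Another gene started on the opposite strand within 1000 bases upstream of 27 members, or 34.6%, against 13.3% of all genes tested. The 9 members whose rows overlap another row, 11.5% against 22.1% of all genes tested, are Mrpl19, Mrpl21, Mrpl24, Mrpl41, Mrpl49, Mrpl53, Mrps6, Mrps25 and Mrps27. The 27 partners were not sorted by function, and those named here are examples. Mrpl43 faces Twnk, the helicase of mitochondrial DNA, and Mrpl47 faces Ndufb5, a subunit of complex I. Mrps12 faces Sars2, a mitochondrial seryl-tRNA synthetase, and Mrpl46 and Mrps11 start 42 bases apart. Others have roles elsewhere in the cell, as Tcp1 of the cytosolic chaperonin beside Mrpl18, Psma2 of the proteasome beside Mrpl32 and the histone chaperone Hira beside Mrpl40. The 78 members lie on 17 chromosomes, with 11 on chromosome 11 and 8 on chromosome 17.

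Transcript levels differed widely among the members. Mean TPM over the 6 libraries ran from 157.4 for Mrpl52 to 4.79 for Mrpl17, with Mrpl23 apart at 1.14. The median was 34.5 TPM for the large and 35.8 TPM for the small subunit, against 16.4 TPM for all genes tested. After Mrpl52 the highest were Mrpl24, Mrpl54, Mrps6 and Mrpl33, and the highest of the small subunit after Mrps6 were Mrps21 and Mrps16. Longer transcripts stood at lower TPM, with Spearman's rho of -0.58 across the 78 members and -0.10 across all genes tested. These points share the 6 libraries, and length is also the divisor of TPM, so rho is given as a description. The difference between the groups followed length in opposite directions in the subunits, with rho of 0.37 in the large and -0.32 in the small, against -0.16 over all genes tested. Members were short, with a median of 1040 bases against 2627 bases over all genes tested.

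**Figure D1:**
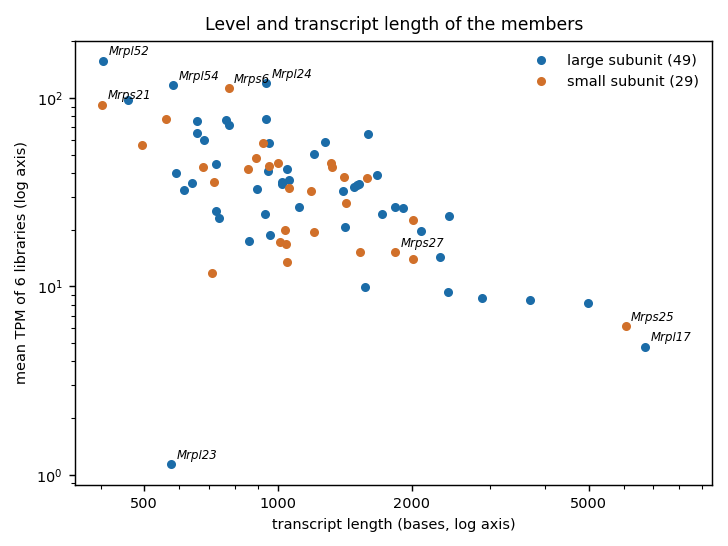
Mean TPM over the 6 libraries (log axis) against transcript length in bases (log axis), 1 point per member, blue for the large and orange for the small subunit. Mrpl52 is highest at 157.4 TPM, Mrpl17 at 6707 bases is the longest, and Mrpl23 lies apart at 1.14 TPM.

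The design sets REV-ERB KO against WT, which asks whether transcripts of the mitochondrial ribosome differed with the genotype label in inflamed colon Tregs. Their total was nearly level. The large subunit summed to 2017.8, 1999.9 and 2205.8 TPM in KO-labelled libraries 1, 2 and 3, against 2099.5, 1956.6 and 1957.3 TPM in WT-labelled libraries 1, 2 and 3. The library labelled WT 1 lay above KO 1 and KO 2, so the groups overlapped. The small subunit summed to 1049.5, 1085.0 and 1180.7 TPM in KO-labelled libraries, against 1134.8, 988.8 and 1058.4 TPM in WT-labelled libraries, which also overlapped. The ratio of the group means was 1.04 for each subunit. The large subunit held 1.88 ± 0.041 times the TPM of the small subunit in KO-labelled libraries and 1.89 ± 0.075 times in WT-labelled libraries (SD, n = 3 each). KO 3 was the highest library for 20 of the 49 large and 15 of the 29 small subunit members. Members took 0.476% to 0.528% of the summed TPM in KO-labelled libraries and 0.464% to 0.503% in WT-labelled libraries.

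**Figure D2:**
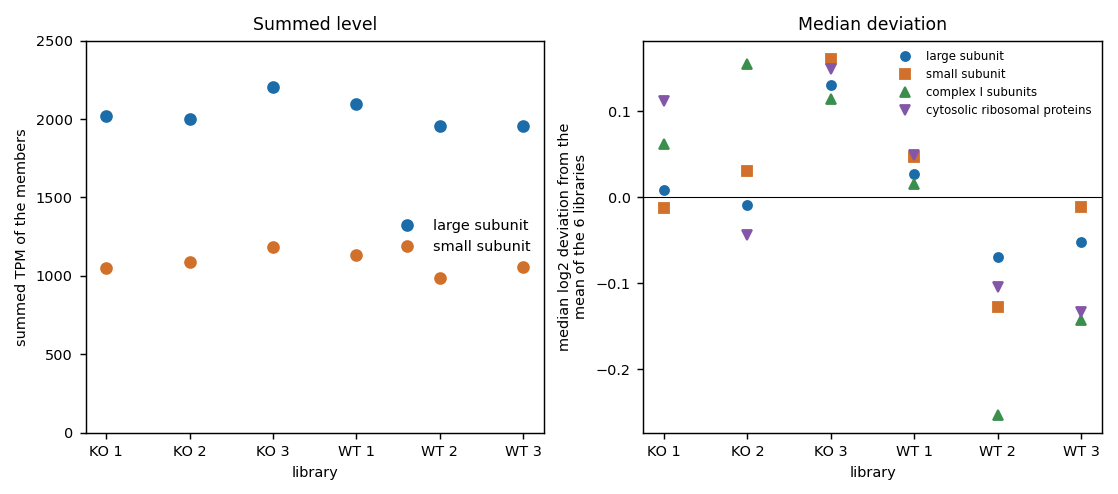
Left, summed TPM of the large (blue) and small (orange) subunit in each library, 3 labelled KO and 3 labelled WT. Right, the median over genes of the log2 deviation from the mean of the 6 libraries. It is shown for both subunits and for genes named for complex I and the cytosolic ribosome. The library labelled KO 3 is highest for both subunits, and WT 1 lies above KO 1 for both.

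No member passed the threshold, an adjusted p of 0.05 over all genes tested in limma's moderated test on log2(TPM + 1). Over all 13211 genes the share that passed was 0%. At an unadjusted p under 0.05, limma gave 6 of the 78 members, or 7.69%, against 15.7% of all genes. Without Mrpl23, which passed the filter on low values through WT-labelled libraries alone and so had to differ, it gave 5 of 77. Of the 6, 2 were among the 49 of the large subunit (4.08%) and 4 among the 29 of the small subunit (13.8%). In direction, 3 were higher and 3 lower in KO, where 7.8% of all genes were higher and 7.86% lower. Groups did not overlap, with KO-labelled libraries higher, for 6 members or 7.69%, against 10.6% of all genes. They did not overlap, with KO lower, for 4 members or 5.13%, against 10.4%, and for 3 of 77 without Mrpl23. Each of these shares lay below that of all genes. With weights per library, limma called 3 of the 78 members, against 4.41% of all genes. These were Mrps6 (adjusted p = 0.03655) and Mrps27 (adjusted p = 0.04451) of the small subunit, and Mrpl23, for which the filter had already fixed a difference. Most differences lay slightly above 0. The median difference was 0.08 for the large subunit, with 32 members above 0 and 17 below, and 0.13 for the small subunit, with 21 above and 8 below. Over all genes tested the median was 0.00, with 49.5% above 0. The SD of a subunit's median between libraries of a group was 0.065 for the large and 0.090 for the small subunit. With the trend of the difference on transcript length removed, the medians were 0.014 for the large and 0.057 for the small subunit. With Mrpl23 left aside, 68 of 77 members differed by less than 0.3 in either direction.

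**Figure D3:**
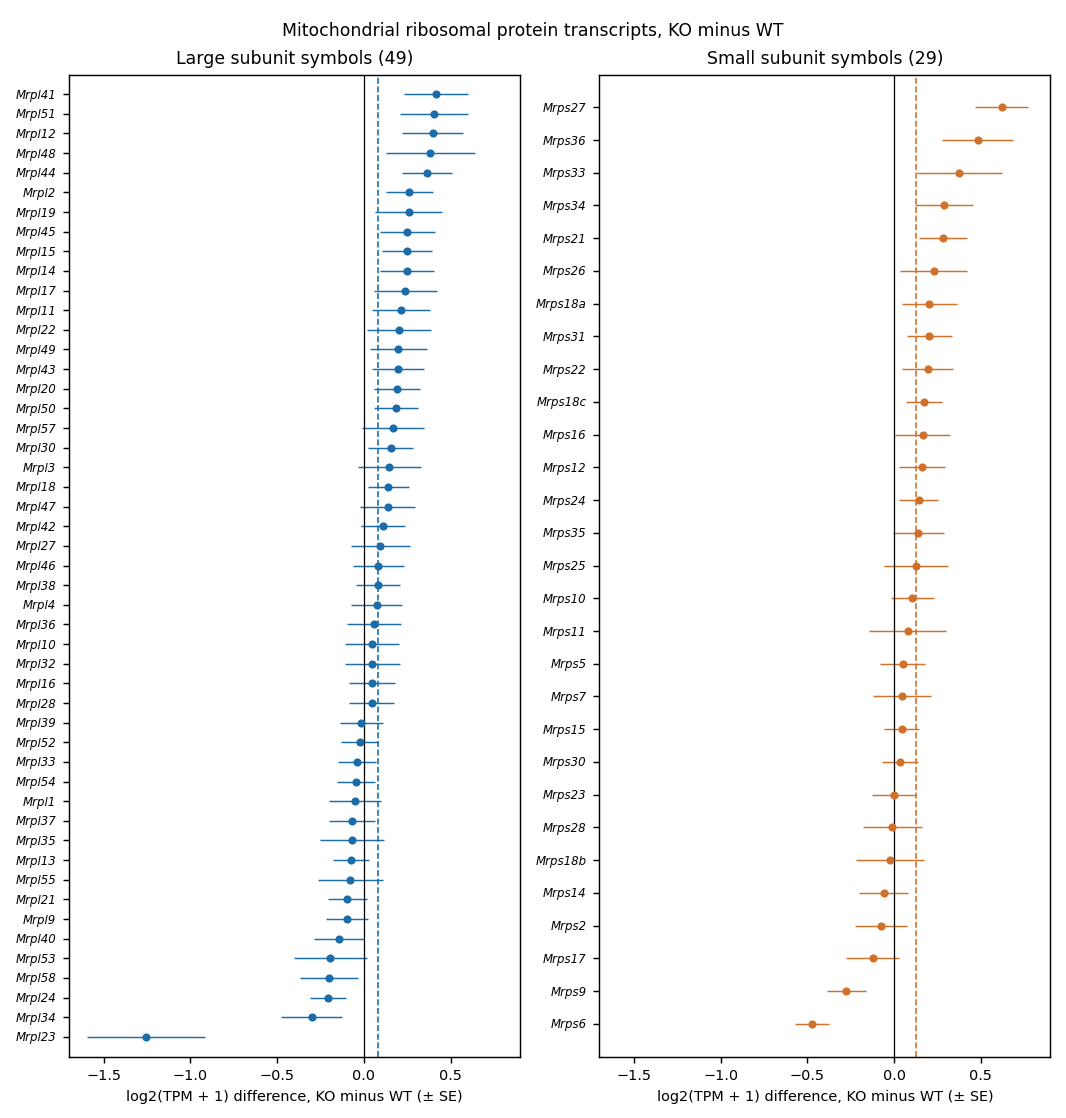
Difference of each member between KO-labelled and WT-labelled libraries on the log2(TPM + 1) scale, KO minus WT, with its SE from limma (n = 3 each), for the large subunit (blue) and the small subunit (orange). The dashed lines are the medians of 0.08 and 0.13; the members at the ends are Mrpl41 and Mrpl23, and Mrps27 and Mrps6.

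Among proteins of the small subunit, Mrps27, which carries pentatricopeptide repeats, had the largest difference upward. Its values were 16.6, 19.5 and 19.7 TPM in KO-labelled libraries 1, 2 and 3, against 13.4, 11.3 and 10.5 TPM in WT-labelled libraries 1, 2 and 3. All KO values lay above all WT values. On the log2 scale it was higher by 0.62 with an SE of 0.152 (limma adjusted p = 0.165), a ratio of means of 1.58, with an exact two-sided permutation p of 0.1, the smallest that 3 against 3 libraries can give. Its row (NM_173757, mm10 chromosome 13, 99344786 to 99415561, plus strand) overlaps 6430562O15Rik on the opposite strand, which averaged 0.612 TPM in KO-labelled libraries and 0.0517 TPM in WT-labelled libraries.

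Mrps6, the counterpart of bacterial S6, had the smallest p of all members and was lower. It stood at 90.3, 98.4 and 93.8 TPM in KO-labelled libraries, against 120.4, 141.8 and 131.7 TPM in WT-labelled libraries, with no overlap. The difference was -0.47 (SE 0.0986, limma adjusted p = 0.132; exact permutation p = 0.1). Its row (NM_080456, mm10 chromosome 16, 92058336 to 92112227, plus strand) overlaps Slc5a3, a myo-inositol transporter, on the same strand. Overlap was taken from the start and end of each row, introns included, so whether reads count for both was not tested. Slc5a3 stood at 22.2 ± 1.51 TPM in KO-labelled libraries and 49.9 ± 14.9 TPM in WT-labelled libraries (SD, n = 3 each). The part of Slc5a3 reads in the value of Mrps6 was not tested.

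Mrps9, a counterpart of bacterial S9, was measured at 32.5, 32.0 and 38.2 TPM in KO-labelled libraries, against 41.3, 41.6 and 41.6 TPM in WT-labelled libraries. The groups did not overlap, and the WT values were close together. The difference was -0.28 (SE 0.111, limma adjusted p = 0.296). Mrps36 had 10.7, 16.2 and 15.1 TPM in KO-labelled libraries, against 11.6, 8.74 and 8.64 TPM in WT-labelled libraries. The library labelled KO 1 lay below WT 1, so the groups overlapped (difference 0.48, SE 0.205, limma adjusted p = 0.314). Mrps21 and the mitochondria-specific Mrps34 differed by 0.28 and 0.29, and in both the library labelled WT 1 lay above at least 1 library labelled KO. Without WT 2 these differences were 0.17 for Mrps21 and 0.14 for Mrps34, and without WT 1 that of Mrps34 was 0.45. Mrps31 was 16.5 ± 0.953 TPM in KO-labelled libraries and 14.2 ± 0.481 TPM in WT-labelled libraries (SD, n = 3 each), without overlap.

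The decoding protein Mrps12 stood at 39.9, 43.8 and 53.6 TPM in KO-labelled libraries, against 41.2, 42.5 and 37.9 TPM in WT-labelled libraries, which overlapped. The 3 paralogs of bacterial S18 differed in level. Mrps18c averaged 59.7 ± 4.66 TPM in KO-labelled libraries and 52.9 ± 3.39 TPM in WT-labelled libraries, and Mrps18a 45.0 ± 2.59 and 39.5 ± 8.15 TPM. Mrps18b was at 16.8 ± 4.39 TPM in KO-labelled libraries and 16.8 ± 1.93 TPM in WT-labelled libraries (SD, n = 3 each). Mrps18c overlapped between the groups through KO 3 and WT 3, and the other two overlapped more widely. Mrps16 (81.7 ± 5.07 TPM in KO and 73.9 ± 16.7 TPM in WT), Mrps17 (30.7 ± 3.86 and 33.7 ± 5.24 TPM), Mrps23 (43.3 ± 4.51 and 43.3 ± 4.47 TPM) and Mrps28 (35.4 ± 2.05 and 36.3 ± 8.45 TPM) overlapped as well.

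In the large subunit, Mrpl44, which has a fold of the RNase III family, stood at 21.5, 21.3 and 27.5 TPM in KO-labelled libraries, against 19.2, 17.4 and 17.1 TPM in WT-labelled libraries. The groups did not overlap, and the library labelled KO 3 stood above the rest. The difference was 0.36 (SE 0.144, limma adjusted p = 0.289; exact permutation p = 0.1). Mrpl41, specific to mitochondria, had 9.97, 10.7 and 11.5 TPM in KO-labelled libraries, against 9.55, 6.36 and 7.72 TPM in WT-labelled libraries. The gap between KO 1 and WT 1 was small, and the difference was 0.42 (SE 0.185, limma adjusted p = 0.328). Its row overlaps Dph7 on the opposite strand, at 6.27 ± 1.75 TPM in KO-labelled libraries and 7.19 ± 1.40 TPM in WT-labelled libraries. Mrpl50 and Mrpl17 were also higher without overlap, at 21.0 ± 0.717 against 18.4 ± 1.70 TPM and at 5.26 ± 0.239 against 4.31 ± 0.359 TPM in KO against WT (SD, n = 3 each).

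Mrpl12, the stalk protein that also binds the mitochondrial RNA polymerase, was measured at 76.3, 92.4 and 94.6 TPM in KO-labelled libraries, against 86.0, 60.5 and 55.5 TPM in WT-labelled libraries. The library labelled WT 1 lay above KO 1. The difference was 0.40 (SE 0.175, limma adjusted p = 0.325). Mrpl51 stood at 39.0, 41.0 and 37.0 TPM in KO-labelled libraries, against 37.1, 21.1 and 31.7 TPM in WT-labelled libraries. There WT 1 was level with KO 3, and the difference was 0.40 (SE 0.195, limma adjusted p = 0.363). Without WT 2 it was 0.18.

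Mrpl24, whose bacterial counterpart L24 starts assembly of the large subunit, was among the most abundant members and lower. It had 114.8, 101.4 and 117.4 TPM in KO-labelled libraries, against 126.1, 138.8 and 120.1 TPM in WT-labelled libraries, a narrow gap without overlap (difference -0.20, SE 0.104, limma adjusted p = 0.383). Its row overlaps Rrnad1 on the opposite strand, at 10.4 ± 2.51 TPM in KO-labelled libraries and 11.7 ± 1.40 TPM in WT-labelled libraries. Mrpl34 had 26.5, 36.6 and 31.7 TPM in KO-labelled libraries, against 48.4, 33.8 and 35.7 TPM in WT-labelled libraries, with KO 2 above 2 of the 3 WT values. Its difference was -0.30, and it was -0.18 without KO 1 and -0.145 without WT 1. Mrpl58, a peptidyl-tRNA hydrolase that frees stalled ribosomes, was at 41.9 ± 8.65 TPM in KO-labelled libraries and 47.8 ± 5.89 TPM in WT-labelled libraries. Mrpl52 (156.0 ± 10.8 and 158.8 ± 13.5 TPM), Mrpl54 (114.9 ± 10.1 and 118.4 ± 9.88 TPM) and Mrpl39 (26.1 ± 1.19 and 26.5 ± 2.85 TPM) were near level between KO and WT (SD, n = 3 each).

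Mrpl23, the counterpart of L23 at the exit of the peptide tunnel, was at 0.206, 0 and 0.494 TPM in KO-labelled libraries, against 1.06, 1.80 and 3.25 TPM in WT-labelled libraries. These values are 1, 0 and 3 reads in KO-labelled libraries and 4, 8 and 14 reads in WT-labelled libraries. It passed the filter only through WT-labelled libraries, so it had to differ. Its difference of -1.26 (SE 0.342, limma adjusted p = 0.194) is therefore a description. Why this member was so far below the others was not tested.

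**Figure D4:**
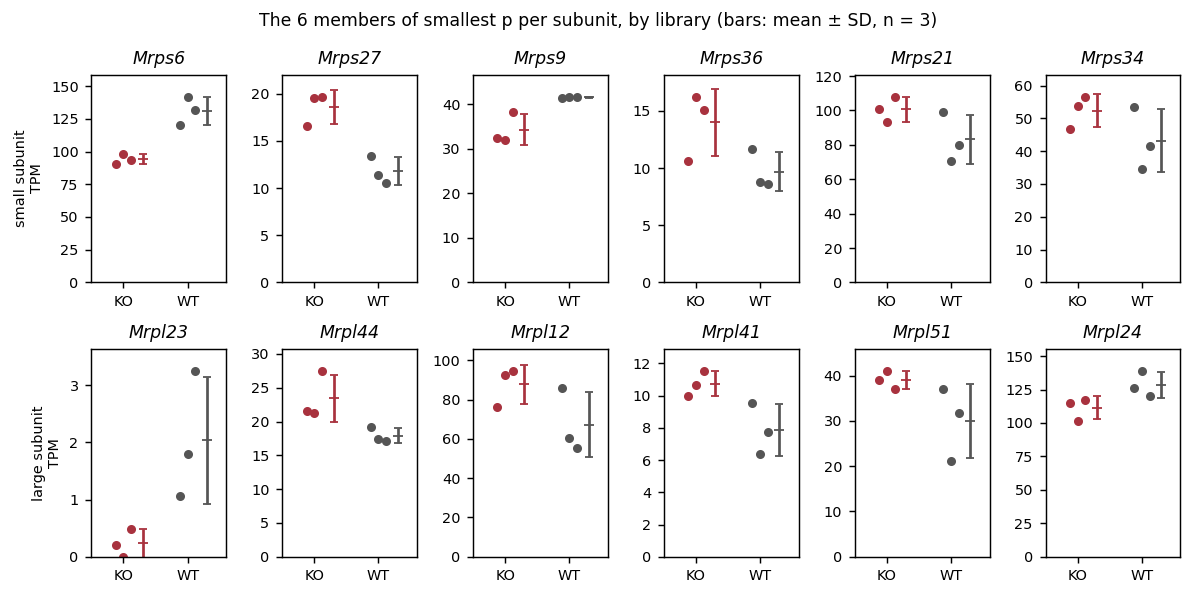
TPM in each library for the 6 members of smallest p in the small subunit (upper row) and the large subunit (lower row), KO in red and WT in grey, with mean ± SD (n = 3) beside the points; every TPM axis starts at 0, where the lower SD bar of Mrpl23 is clipped. Mrps6, Mrps27, Mrps9, Mrpl23, Mrpl44, Mrpl41 and Mrpl24 do not overlap between the groups, while Mrps36, Mrps21, Mrps34, Mrpl12 and Mrpl51 do.

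The medians of other gene lists around mitochondrial translation lay on both sides of 0, and no gene in them passed the threshold. Of 5 mitochondrial ribosomal proteins named outside the pattern, the median difference was 0.07, with Chchd1 of the small subunit at 69.5 ± 6.77 TPM in KO-labelled libraries and 56.2 ± 6.04 TPM in WT-labelled libraries. Of 13 translation factors, 7 had a difference above 0 (median 0.03). The elongation factors had the smallest p, with Gfm1 at 29.5, 33.6 and 29.9 TPM in KO-labelled libraries, against 19.9, 24.0 and 24.8 TPM in WT-labelled libraries. Tufm had 18.2, 21.8 and 21.2 TPM in KO-labelled libraries, against 15.8, 15.0 and 10.7 TPM in WT-labelled libraries. Neither overlapped between the groups (limma adjusted p = 0.218 and 0.226). Of the 13 factors, 4 (30.8%) were higher in KO without overlap and 0 lower, against 10.6% and 10.4% of all genes tested.

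Of 22 aminoacyl-tRNA synthetases of mitochondria, 12 were above 0 (median 0.04), with Gars, which serves the cytosol too, at 93.8 ± 4.72 TPM in KO-labelled libraries and 75.1 ± 5.49 TPM in WT-labelled libraries. Iars2 stood at 47.7 ± 2.37 and 38.5 ± 4.17 TPM in KO and WT. Of 22 genes of ribosome assembly and rRNA modification, 10 were above 0 (median -0.01), with Mettl17 at 18.0 ± 2.27 and 24.8 ± 4.50 TPM and C1qbp at 99.1 ± 11.2 and 80.9 ± 4.56 TPM in KO and WT. Of 19 genes of mitochondrial DNA and RNA upkeep, 10 were above 0 (median 0.00). Slirp, which stabilises mitochondrial messages, was at 59.0 ± 1.54 TPM in KO and 43.0 ± 10.7 TPM in WT. Polg, the DNA polymerase of mitochondria, was at 38.3 ± 7.50 and 49.9 ± 3.31 TPM. Of 12 tested regulators of nuclear genes for mitochondria, 5 were above 0 (median -0.09). The receptor Esrra stood at 30.3 ± 6.31 TPM in KO and 20.8 ± 1.16 TPM in WT, and Myc at 77.6 ± 6.69 and 64.8 ± 2.26 TPM (SD, n = 3 each throughout). Of the synthetases, 3 (13.6%) were higher in KO without overlap and 0 lower, and of the assembly genes 2 (9.09%) and 1 (4.55%). Of the upkeep genes, 3 (15.8%) were higher and 0 lower without overlap, and of the regulators 3 (25%) and 2 (16.7%). Over all genes tested these shares were 10.6% and 10.4%.

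Set beside related gene families, taken by symbol, the members lay nearer to 0 than genes named for complex I. The 45 tested genes whose symbol starts with Nduf and a, b, c, s or v had a median of 0.24, with 39 above 0. This pattern takes in complex I subunits, which assemble with membrane subunits translated by this ribosome. It also matches names of assembly factors (Ndufaf). Of the 45 genes, 18 or 40% were higher in KO without overlap and 0 lower, where all genes had 10.6% and 10.4%. Genes named for the cytosolic ribosome start with Rpl, Rps or Rplp and a digit, or are Rpsa. The 100 tested had a median of 0.13, with 71 above 0, 14 higher and 4 lower without overlap. The pattern also matches names of other genes, such as the S6 kinases (Rps6k). The difference between the families was not tested. Median deviations of both subunits and of both symbol sets were lowest in the library labelled WT 2 or WT 3.

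**Figure D5:**
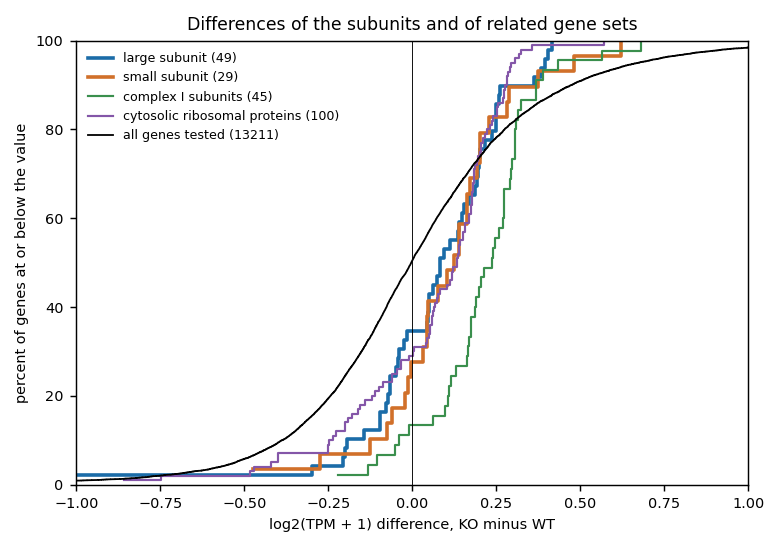
Cumulative percent of genes at or below each difference (log2(TPM + 1), KO minus WT). The curves are the large subunit, the small subunit, genes named for complex I, genes named for the cytosolic ribosome and all genes tested. The midpoints of the curves are the medians of 0.08, 0.13, 0.24, 0.13 and 0.00. The axis ends at -1 and 1, so Mrpl23 is off the plot.

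Markers of other cell types stood beside these values as follows. None of them passed the threshold, and neither did any other gene tested. All 17 epithelial markers had a difference above 0 and none was listed at 0 in every library, with summed levels of 3358.6 to 6707.4 TPM in KO-labelled libraries and 2354.1 to 3362.6 TPM in WT-labelled libraries. Their mean log2 level was 7.25, 7.85 and 6.85 in KO-labelled libraries 1, 2 and 3, and 6.86, 6.14 and 6.5 in WT-labelled libraries 1, 2 and 3. Of the 17 markers, 10 (58.8%) were higher in KO without overlap and 0 lower, against 10.6% and 10.4% of all genes tested. The library labelled KO 3 had the most mitochondrial ribosomal transcripts and the lowest epithelial level of its group. In the WT group the order was the other way. There WT 1 had the highest sums, 2099.5 TPM for the large and 1134.8 TPM for the small subunit, and the highest epithelial level. Summed myeloid markers, 8 of 9 above 0, ran from 655.6 to 1140.0 TPM in KO and 605.9 to 940.8 TPM in WT, and fibroblast and smooth muscle markers, 8 of 8 above 0, from 252.1 to 482.8 and 193.5 to 457.8 TPM. B cell markers, 2 of 5 above 0, ran from 27.5 to 52.4 TPM in KO and 26.4 to 48.1 TPM in WT. Neutrophil markers, with 4 of 6 tested and those 4 above 0, ran from 13.8 to 42.4 TPM in KO and 4.4 to 11.3 TPM in WT, with S100a8 at 0 in WT-labelled libraries. Of 20 proliferation genes, 15 were above 0 (median 0.13), and their summed level of 964.3 to 1524.7 TPM in KO and 957.8 to 1198.9 TPM in WT was highest in KO 3. The nuclear RNAs Malat1 and Neat1 together had 441.7 to 489.6 TPM in KO and 785.6 to 1006.0 TPM in WT. With the epithelial score as a covariate the medians were 0.09 for each subunit, but single members moved by over 1.5 times. The score itself differed with the labels, with only KO 3 (6.85) below a WT-labelled library, WT 1 (6.86). With 6 libraries this fit therefore separates the score from genotype poorly. Of the members of smallest p, Mrpl51 was 0.0304 (0.40 without the covariate), Mrpl12 0.20 (0.40), Mrpl41 0.26 (0.42), Mrpl24 -0.035 (-0.20), Mrps36 0.25 (0.48), Mrps34 0.0754 (0.29) and Mrps9 -0.147 (-0.28). The value of Mrpl23 was -0.779 (-1.26). Mrps6, Mrps27, Mrpl44 and Mrps21 moved by less. The part of the other markers in the members' values was not tested.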

How the data were processed

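Expression was measured in 6 libraries made from 1.3 µg of total RNA with a stranded mRNA kit, per the labels' protocols. The authors deposited TPM values, 1 row per RefSeq transcript with coordinates and length, per the file headers. Per the submitters' processing notes, the build was mm10, and HOMER 4.9.1, STAR 2.5.3a, Trim Galore 0.4.4 and FastQC 0.11.8 were used. The sources used here do not state strand-aware counting, which leaves overlapping genes uncertain. Transcript length (other columns of the table) was used as deposited.

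TPM multiplied by length gave whole multiples of 1 step per library. Among values of at most 500 reads, 99.99% were whole with a tolerance of 0.1, so read numbers were recovered. Rows with 1 read (73 to 96 per library) were rarer than rows with 2 (573 to 785), so a step may be 1 mate of a pair.

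Genes with at least 1 TPM in at least 3 of 6 libraries were tested (13211) with limma 3.58.1 in R 4.3.3. This was the moderated two-sided test with variance trend on log2(TPM + 1), genotype as the only term, and Benjamini-Hochberg adjustment at 0.05. Differences are on that scale, KO minus WT, and understate low genes. Members were not tested as a set. Python 3.11.15 was used for the rest. Fits were tested on simulated data. Members and lists were chosen with earlier results of these data known. Members named were the 6 of smallest p, the 3 highest, the 3 of lowest difference and the 2 nearest 0 per subunit, 7 chosen by role, and, per list, up to 2 of smallest p. Mrpl50, Mrpl17, Mrps31, Mrpl33, Mrps30 and the members named for their promoter or position were added after their values were seen.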

Additional observations from a re-analysis of the deposited data

How the results depend on the processing

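The medians of both subunits kept a positive sign under every alternative run. The large subunit's median of 0.08 ran from 0.054 to 0.121 with 1 library left out and was 0.014 with the trend on transcript length removed, where the small subunit's was 0.057. The small subunit's otherwise ran from 0.073 to 0.152. With that trend removed, the median of all genes tested was 0.002. The large subunit then had 28 members above 0 and 21 below, and the small subunit 17 and 12. No gene passed the threshold in the main test, nor with voom on the recovered reads, at 2068 genes with an unadjusted p under 0.05 in the main test. With array weights, which gave the library labelled KO 3 a weight of 0.427 and WT 3 one of 2.1, 582 genes passed (4.41%), among them 1 member of the large subunit, Mrpl23, and 2 of the small, Mrps6 and Mrps27. Leaving out 1 library gave 0 to 14 genes and no member, the 14 without WT 1. Same-numbered libraries correlated at 0.0037, -0.219 and -0.0408 in their deviations from the group means. Differently numbered libraries ran from -0.119 to 0.162. With 3 libraries per group, each centred on its group mean, these correlations cannot settle whether same-numbered libraries were paired. With the replicate block 0 genes and 0 members passed, and the medians were 0.082 and 0.126. Some members changed sign. Mrps28 was 0.0185 with array weights, 0.00421 with median centring, 0.011 with quantile normalization and 0.0135 with voom. Mrps23 was 0.17 with the epithelial covariate, 0.0136 with median centring, 0.0258 with quantile normalization and 0.0072 with voom. With that covariate Mrpl52 was 0.149, Mrps18a -0.0066 (0.20 without it) and Mrps18b 0.171; Mrps18b was 0.00873 with voom and Mrpl39 0.00049 with median centring. With 1 library left out, Mrps23 ran from -0.0833 to 0.0771, Mrps28 from -0.177 to 0.152, Mrps18b from -0.214 to 0.114, Mrpl52 from -0.0955 to 0.0339, Mrpl54 from -0.0923 to 0.0297 and Mrpl39 from -0.0884 to 0.0607. Chosen after seeing the data, leaving out Mrpl23 (0.088) or the members that overlap another row (0.082 and 0.121), or placing members by structure (0.082 and 0.115, with Mrps18a and Mrps30 in the large subunit and Mrps36 left out), left the medians close. The cause of these changes was not tested. The planned count models, quasi-likelihood and negative binomial, were not run on the recovered reads; voom stood in their place.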
